A study of Arabidopsis thaliana with 12 samples.

Results

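The 150 probe sets described here were chosen because the Arabidopsis thaliana double mutant pmr5 pmr6 stood apart at them while pmr5 and pmr6 each stayed close to Col-0. On a scale of log2(intensity + 28), a probe set qualified if its mean intensity over the 12 arrays was at least 100 and if pmr5 and pmr6 each lay within 0.25 of Col-0. The 75 with the highest margin of the double mutant above the highest of the other genotypes are called higher members, and the 75 with the lowest margin below the lowest are called lower members, each numbered by rank. Of 22810 rows, 22746 carried no control identifier, 13659 of these reached the intensity minimum and 8586 of these met the limits on the single mutants. The choice used the genotype means of all 12 arrays, so the differences of the double mutant at these members are given as a description and nothing is concluded from their size.

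Rosettes of untreated plants, 3 weeks old and grown at 22 °C with 14 h of light, were hybridized to Affymetrix ATH1 arrays, which measure each transcript with a probe set, a group of short oligonucleotides. The genotypes were the double mutant pmr5 pmr6, the single mutants pmr5 and pmr6, and the wild-type accession Col-0, with 3 arrays each. The labels call the arrays of a genotype biological replicates. They name no alleles and do not say how plants were pooled, so the spread between arrays may be partly technical. Per the headers of the instrument records the arrays were hybridized in 3 runs of 4, each with 1 array per genotype, and the replicate number is the run. Each genotype was always on a fluidics module of its own, pmr5 pmr6 on module 4 and Col-0 on module 1, so module and genotype cannot be told apart.

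Both genes are named after powdery mildew resistance, the trait by which the mutants were found. PMR6 encodes a pectate lyase-like protein and PMR5 a protein of a plant-specific family linked to the acetylation of cell wall polymers. Pectin is a main polysaccharide of the primary wall of leaf cells, and the plant senses changes in it as it senses damage by a pathogen. When genes act in parallel on such a process, loss of either may leave a transcript near its wild-type level while loss of both moves it.

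No member could be assigned a gene. Over 146 pairs of rows whose identifiers share a gene, mean levels correlated at 0.05 and profiles across arrays at 0.02 with identifiers as deposited, where probe sets of 1 transcript should move together. Placing the control identifiers first, reversing the order or shifting the identifiers by up to 200 rows gave level correlations of at most 0.36, so no order was recovered. The first 64 rows, where controls would lie if they came first, contained 0 members. The leaf label could not be checked against marker genes for the same reason, and no sequence is shown.

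Among the higher members, pmr5 pmr6 exceeded Col-0 by a median of 0.63 on the scale of log2(intensity + 28), or 1.54-fold on that scale, with a range of 0.41 to 1.14. The median was 0.56 above pmr5 and 0.60 above pmr6. Among the lower members it lay at a median of -0.61 against Col-0, -0.54 against pmr5 and -0.57 against pmr6, with differences from Col-0 between -1.98 and -0.43. The median over all 17060 probe sets in the fit was 0.02 for pmr5 pmr6 minus Col-0. On that scale, which shrinks the folds of dim probe sets, 1 higher and 3 lower members differed from Col-0 by 2-fold or more. In plain mean intensity 10 higher and 6 lower members did. At the limit of rank 75 the margins were 0.4058 for the last higher member and -0.4123 for the last lower member, with 0.4051 and -0.4111 for the next probe sets outside. The last higher member averaged 748.1 ± 95.8 in pmr5 pmr6 and 557.7 ± 70.1 in Col-0, against 287.7 ± 39.3 and 194 ± 22.8 for the next one outside (SD, n = 3 each). The last lower member averaged 1010.8 ± 92.2 in pmr5 pmr6 and 1588.6 ± 454.7 in Col-0, against 1320.3 ± 180.3 and 1935.1 ± 177.3 for the next.

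**Figure D1:**
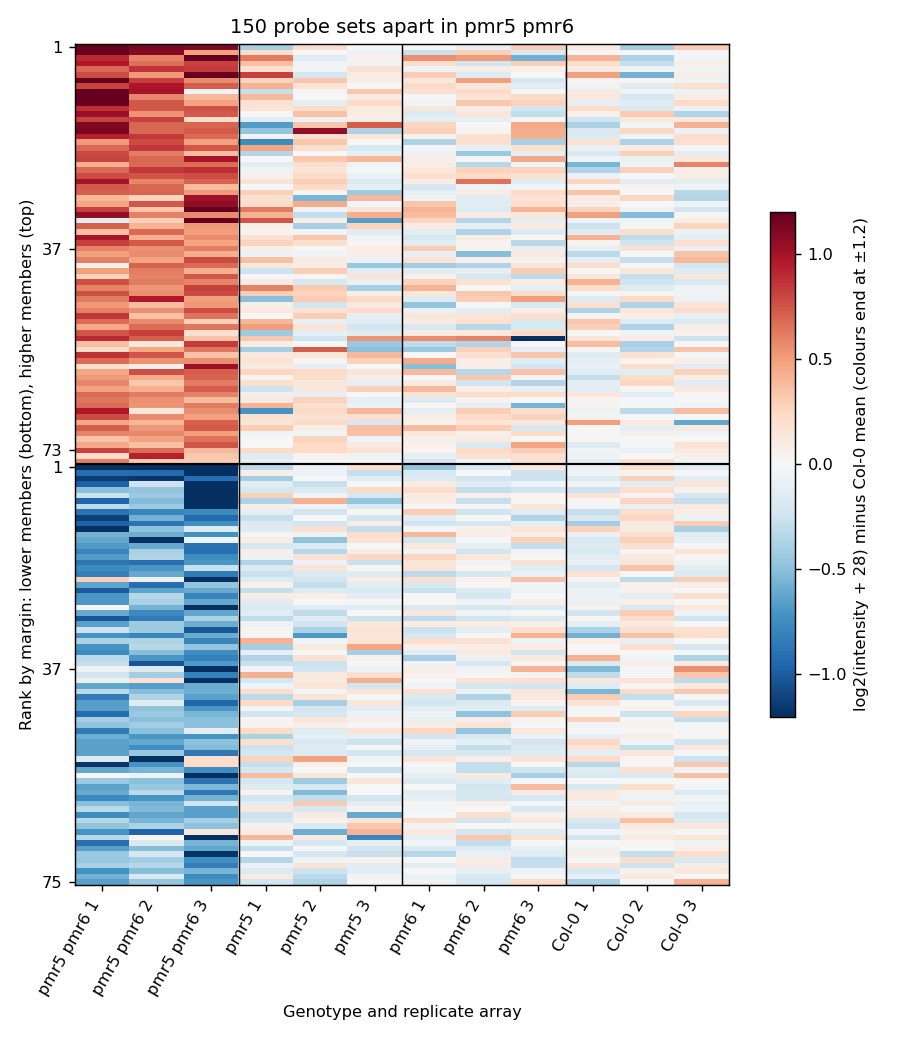
Level of each member (rows, by rank, higher members above the line and lower members below) on each of the 12 arrays (columns, by genotype and replicate), as log2(intensity + 28) minus the Col-0 mean. The pmr5 pmr6 columns are mostly red for higher and blue for lower members, with 2 of 225 values at higher and 7 of 225 at lower members on the other side of the Col-0 mean.

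The most extreme member fell. Lower member 1 read 175.4, 80.7 and 260.1 in pmr5 pmr6, against 561.6, 671.2 and 808.9 in pmr5, 498.3, 617.5 and 771.2 in pmr6, and 670.9, 807.1 and 643.9 in Col-0. The highest double-mutant array was well under the lowest of the 9 other arrays, though the double-mutant arrays themselves spread widely. The difference from Col-0 was -1.98 (SE 0.24), and without pmr5 pmr6 replicate 2, the dimmest array, it was -1.60. Lower member 2 read 284, 282.3 and 230.2 in pmr5 pmr6, against 457.2 to 593.1 over the pmr5 arrays, 466.6 to 558.5 over the pmr6 arrays and 542.6 to 578.3 over the Col-0 arrays. Lower member 3, with 474.4, 466 and 566 in pmr5 pmr6 and 968.8, 1326.5 and 984.4 in Col-0, was its counterpart at a higher level, and its single mutants lay between 803.3 and 1063.7. Lower member 9 read 408.1, 439.3 and 446 in pmr5 pmr6, against 656.5 to 970.4 over the single-mutant arrays and 637.2, 902.6 and 817.4 in Col-0. In lower members 2, 3 and 9 all 3 double-mutant arrays lay close together and below every other array.

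The remaining lower members among the 10 with the lowest margins were dim, and in most of them pmr5 pmr6 replicate 3 was far below its fellow replicates. Lower member 4 read 73.1, 139.7 and 31.7 in pmr5 pmr6 and 166.1, 154.6 and 194 in Col-0, and replicate 2 lay above the lowest pmr5 array at 137.1. Lower member 5 read 193.4, 198.1 and 60.8 in pmr5 pmr6 and 235.7, 336 and 294.6 in Col-0. Lower member 6 read 148.4, 127.1 and 32.5 in pmr5 pmr6 and 208, 190.1 and 155.4 in Col-0, where replicates 1 and 2 were only slightly under the lowest wild-type array. Lower member 8 read 135.1, 120.9 and 38.6 in pmr5 pmr6, against 169.6, 161.3 and 190.2 in Col-0. Without pmr5 pmr6 replicate 3 the differences of lower members 4, 5, 6 and 8 from Col-0 were -0.61, -0.49, -0.35 and -0.37, against -0.99, -0.93, -0.84 and -0.78 with it. Lower member 7 read 81.3, 119.6 and 56.1 in pmr5 pmr6 and 186.3, 226.1 and 146.9 in Col-0, and the 10th read 47.3, 82.3 and 57.5 in pmr5 pmr6 and 115.3, 166.5 and 128.3 in Col-0. Both were below every other array, at levels where a small step in intensity makes up the whole difference.

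Higher member 1 read 605.8, 580.5 and 573.8 in pmr5 pmr6, against 183, 294 and 251.9 in pmr5, 256.2, 228.9 and 313.5 in pmr6, and 272.5, 180.6 and 318.2 in Col-0. The double-mutant arrays were nearly equal, and every other array lay at or below 318.2. Its difference from Col-0 was 1.14 (SE 0.18). Higher member 5 differed less from array to array in the other genotypes, at 493.7, 565.9 and 552.3 in pmr5 pmr6, 343.9, 289.8 and 341.4 in pmr5, 285.1, 313.7 and 312.1 in pmr6, and 321.1, 286.6 and 285.1 in Col-0. Higher member 4 read 414.5, 332.9 and 375.1 in pmr5 pmr6 and 158.6 to 265.2 over the other 9 arrays. Higher member 2 was dimmer, at 313.8, 283.5 and 176 in pmr5 pmr6 against 117.7, 119.3 and 115.8 in Col-0, with single-mutant arrays between 92.6 and 149.2. In all of these the double mutant was above every other array.

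The replicate arrays of the double mutant lay further apart at most of the other leading higher members. Higher member 7 read 718.6, 539.7 and 444.7 in pmr5 pmr6 and 299.7, 296.8 and 277.9 in Col-0, and the 10th read 1405.6, 763.6 and 669.1 in pmr5 pmr6 and 547.7, 430.5 and 536.6 in Col-0. For the 10th the difference from Col-0 was 0.49 without pmr5 pmr6 replicate 1, against 0.80 with it. Its pmr5 replicate 1, at 668.5, was just under the lowest double-mutant array. Higher member 9 read 386.7, 292.4 and 128.1 in pmr5 pmr6 and 145.6, 127.8 and 126.7 in Col-0. Its double-mutant replicate 3 was at the wild-type level. It lay below every pmr6 array, at 131.1 to 162, and below pmr5 replicate 3, at 173.3, so the genotypes overlapped. The difference from Col-0 was 1.18 without that double-mutant array, 0.47 without replicate 1 and 0.77 with all arrays. Higher member 3 read 165.3, 129.5 and 240.4 in pmr5 pmr6 and 109.9, 52.7 and 73.5 in Col-0, and the sixth read 187.1, 150.2 and 303.3 in pmr5 pmr6 and 148.2, 56.7 and 103.5 in Col-0. In both, pmr5 replicate 1 (132.2 and 193.7) was above the lowest double-mutant array, so the genotypes overlapped. Higher member 8 read 161.1, 183.3 and 150.2 in pmr5 pmr6, against 69.3 to 115.8 over the other arrays, and did not overlap.

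Over all members, the 3 double-mutant arrays lay above all 9 others at 51 of the 75 higher members and below all 9 at 49 of the 75 lower members. Over the probe sets in the fit this held for 4.65% upward and 4.15% downward, but the members were picked on these same values. Read run by run, pmr5 pmr6 was outermost in the direction of the choice in every run at 58 higher and 53 lower members, where this held for 8.11% and 7.13% of the probe sets in the fit, and these values too had entered the choice. The spread between replicate double-mutant arrays (SD on the log2 scale) had a median of 0.17 at higher and 0.23 at lower members, against 0.13 at the 8586 probe sets that met the limits. At higher members the spread of the other genotypes was as large, with medians of 0.19 in pmr5, 0.20 in pmr6 and 0.21 in Col-0, and at lower members it was 0.17, 0.12 and 0.18. Dim members had the wider spread in pmr5 pmr6. Its median was 0.24 at higher and 0.39 at lower members with a mean intensity under 200. At those of 200 or more it was 0.15 and 0.16. At lower members pmr5 pmr6 replicate 3 was the lowest of the 3 arrays 39 times, replicate 1 was it 22 times and replicate 2 14 times. Among the 8586 that met the limits replicate 3 was also the lowest most often, at 3240, against 2641 for replicate 1 and 2705 for replicate 2. At higher members replicate 1 was the highest 35 times, replicate 2 15 times and replicate 3 25 times, where the same counts over the 8586 were 2855, 2631 and 3100. Replicate 3 was the array with the lowest mean Spearman correlation with the other arrays of the series, 0.947, and it and pmr5 replicate 1 had the highest 5th percentiles of intensity, at 9.2 and 9.6 against 3 to 5 elsewhere. The part of these array features in the lower members was not tested. For pmr5 pmr6 replicate 2 the instrument record shows that staining was interrupted. The median departure of this array from the mean of the other genotypes was the smallest of the double-mutant arrays in both directions, 0.55 and -0.45. It was 0.63 and -0.57 for replicate 1 and 0.60 and -0.65 for replicate 3. A link between the interruption and the departure was not tested.

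The members were dimmer than the probe sets they were drawn from. Their mean intensity had a median of 189 for the higher and 334.6 for the lower members, against 511.7 for those that met the limits. Between 100 and 200 lay 50.7% of the higher and 34.7% of the lower members, against 15.4% of those that met the limits. Of the 38 higher members under 200, 18 had double-mutant arrays above all others, and of the 37 at 200 or more, 33 did, against 4.26% and 5.5% of all probe sets in the fit at 100 to 200 and at 200 or more. Of the 26 lower members under 200, 12 had them below all others, and of the 49 at 200 or more, 37 did, against 1.1% and 6.04% of all. These values had chosen the members, so nothing is read from the counts. The brightest member, higher member 71, read 14735, 16197.1 and 18264.9 in pmr5 pmr6, against 11687.3, 14029 and 11287.6 in pmr5, 12103.8, 12460.1 and 11566.4 in pmr6, and 11812.9, 11428.7 and 11609 in Col-0. A difference of 0.49 from Col-0 was enough there to place the double mutant above all other arrays, though the margin over pmr5 replicate 2 was small.

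A limma model fitted to all 17060 probe sets called 52 higher and 53 lower members in pmr5 pmr6 against Col-0 at an adjusted p under 0.05, where 9.88% of all probe sets were called higher and 9.38% lower. Against pmr5 it called 23 higher and 28 lower members (1.86% and 1.34% of all), and against pmr6 36 and 41 (4.14% and 4.14% of all). The rule used these contrasts, so nothing is read from the counts. All 3 comparisons called 21 higher and 26 lower members, against 1.2% and 0.991% of all probe sets, and none of the 3 called 21 and 20. The counts of higher members called against pmr5 depended on single arrays: leaving out replicate 1 of pmr5 pmr6 left 10 higher members called, and leaving out its replicate 2 left 12. With pmr5 replicate 2 left out 15 higher members were called, and with pmr5 replicate 3 left out 10 were. Against pmr6, 20 higher members were called with replicate 1 of pmr5 pmr6 left out, and 20 higher and 27 lower members with replicate 1 of pmr6 left out.

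**Figure D2:**
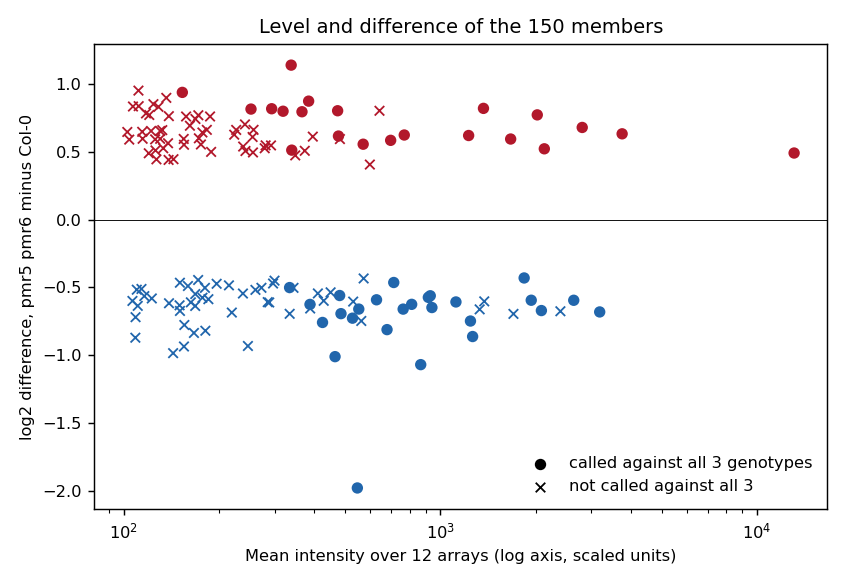
Difference of pmr5 pmr6 from Col-0 (log2, vertical) against mean intensity over the 12 arrays (log axis) for the 150 members. Filled points mark the 21 higher and 26 lower members called against pmr5, pmr6 and Col-0, and crosses, which crowd the dim end, mark the others.

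The single mutants were held close to Col-0 by the rule, which also used the values that follow. At higher members the median difference from Col-0 was 0.08 in pmr5 and 0.09 in pmr6, and both single mutants were above Col-0 at 39 of 75, against 2843 of the 8586 that met the limits. At lower members the medians were -0.09 and -0.07, and both were below Col-0 at 44 of 75, against 2767 of the 8586. These differences share the Col-0 arrays with each other. One member was called in a single mutant: lower member 60 read 3254.2, 3088.2 and 3261.5 in pmr5 and 4070.8, 3643.3 and 3712.5 in Col-0, a difference of -0.25 (4.2% of all probe sets were called higher and 3.89% lower in pmr5 against Col-0). It read 2216.1, 2318.4 and 2560.2 in pmr5 pmr6 and 3280.2 to 3549.1 over the pmr6 arrays, so the double mutant lay below every other array and both single mutants lay between it and Col-0. No member was called in pmr6 against Col-0, where limma called 2.16% of all probe sets higher and 1.26% lower, and 2 higher members and 1 lower member had an unadjusted p under 0.05 in their direction (7.36% and 6.91% of all).

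Since all arrays entered the choice, the same rule was also applied to 2 runs at a time and the chosen probe sets were read in the run left out, which had no part in choosing them. Each left-out run held 1 array per genotype, so there is no test within a run, and a two-sided sign test over 3 runs could not go below 0.25. For the 75 chosen as higher, pmr5 pmr6 was above all other genotypes of the left-out run at 47, 58 and 53 when run 1, 2 or 3 was left out (62.7%, 77.3% and 70.7%). Among all probe sets that met the limits in the other 2 runs it was above at 25.9%, 28.1% and 28.3%. For the 75 chosen as lower, it was below all other genotypes at 30, 47 and 42 (40%, 62.7% and 56%), against 26.9%, 29.8% and 33.1%. The share was above the background in all 3 runs and both directions, and was smaller for the lower choice in each run. In run 1 the lower choice exceeded the background least, and there pmr5 pmr6 was above all other genotypes at 21.3% of them.

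The size of the difference shrank in the left-out run except in 1 case. For the higher choice the median difference of pmr5 pmr6 from Col-0 was 0.33, 0.75 and 0.45 in left-out runs 1, 2 and 3, against 0.62, 0.72 and 0.66 in the runs used for choosing. For the lower choice it was -0.18, -0.48 and -0.29, against -0.69, -0.69 and -0.65. The median over all probe sets that met the limits was between -0.02 and 0.00 in each left-out run. Of the higher choice 61, 70 and 68 were above Col-0 (50.4%, 47.8% and 48.5% of all that met the limits), and of the lower choice 46, 68 and 54 were below it (49.6%, 52.2% and 51.4%). Against the single mutants the left-out medians of the higher choice were 0.24, 0.41 and 0.35 over pmr5 and 0.40, 0.43 and 0.26 over pmr6. Those of the lower choice were -0.08, -0.25 and -0.17 against pmr5 and -0.22, -0.26 and -0.26 against pmr6. All 18 of these medians had the direction of the choice, and the smallest was the lower choice against pmr5 in run 1.

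**Figure D3:**
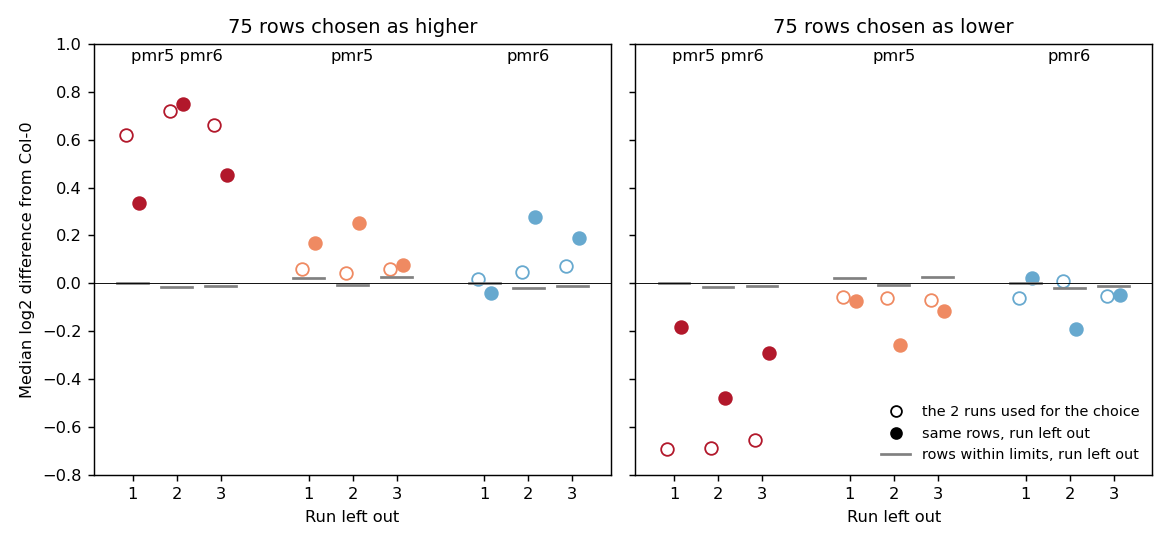
Median log2 difference from Col-0 in pmr5 pmr6, pmr5 and pmr6 (blocks, left to right) for 75 probe sets chosen as higher (left panel) or lower (right panel) from 2 runs. Open circles show the 2 runs used for the choice, filled circles the run left out, and grey bars, in that left-out run, all probe sets that met the limits in the other 2; filled circles of pmr5 pmr6 lie on the side of the choice in every run, mostly closer to 0 than the open ones.

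The single mutants did not all stay at the wild-type level in the left-out runs, and their shifts were largest in run 2. For the higher choice pmr5 differed from Col-0 by a median of 0.17, 0.25 and 0.08, against 0.06, 0.04 and 0.06 in the runs used for choosing, and was above Col-0 at 53, 61 and 46 of 75 (backgrounds 53.4%, 48.7% and 55.1%). In pmr6 the medians were -0.04, 0.28 and 0.19, with 35, 57 and 54 above Col-0 (50.6%, 46.3% and 47.3%). For the lower choice they were -0.07, -0.26 and -0.11 in pmr5, with 41, 57 and 51 below Col-0 (46.5%, 51.2% and 44.9%), and 0.02, -0.19 and -0.05 in pmr6, with 36, 60 and 47 below it (49.4%, 53.6% and 52.7%). In run 2 both single mutants were therefore shifted in the direction of the double mutant, while in run 1 the medians of pmr6 were on the opposite side of 0. These differences share the Col-0 array of the run, so its own deviation enters all 3 mutant genotypes alike, and its part in these shifts was not tested. Both single mutants were within 0.25 of Col-0 in the left-out run at 20, 17 and 27 of the higher and 22, 22 and 30 of the lower choice, against 50.3%, 55.9% and 55.4% of all that met the limits. These shares were not matched for level. With run 1 left out, 46 of the higher and 34 of the lower choice had a mean intensity under 200 in the runs used for choosing. Among all that met the limits it was 1158 of 8062. In these counts the order of the genotypes held more often than the flatness of the single mutants, in data with 1 array per genotype. Order and flatness had different backgrounds, so no more is read from this. In leaf tissue, fewer cells of a type and less RNA per cell cannot be told apart at any of these members.

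Brighter probe sets kept their place more often. Of those chosen as higher with a mean intensity of 200 or more in the 2 runs, 21 of 29, 33 of 39 and 38 of 48 had pmr5 pmr6 above all others in left-out runs 1, 2 and 3. Of those under 200 it was 26 of 46, 25 of 36 and 15 of 27. Of those chosen as lower it was 21 of 41, 34 of 44 and 32 of 49 at 200 or more, against 9 of 34, 13 of 31 and 10 of 26 under 200. The share among all probe sets that met the limits ran from 25.2% to 34.1% at 200 or more and from 21.5% to 36.6% under 200. For dim probe sets chosen as lower with run 1 left out, the share of 26.5% in run 1 was near the 21.5% of their background. Their median difference from Col-0 in run 1 was 0.14, in the direction opposite to the choice. This division by level was added after the data had been seen.

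Each pair of runs chose partly different probe sets, and 5 higher and 5 lower members were chosen by every pair. Another 26 higher and 22 lower members were chosen by 2 of the 3 pairs, 31 and 34 by 1 and 13 and 14 by none. Each run took part in choosing these 10, and they were picked out after their values had been seen, so their values are a description only. The higher ones were members 2, 4 and 5, given above, with 17 and 26. Higher member 17 read 2089.6, 1959.9 and 1744.5 in pmr5 pmr6, against 1120.1, 1246.9 and 1193.8 in pmr5, 1111.6, 1232.6 and 1473.7 in pmr6, and 966.1, 1038.5 and 1249.9 in Col-0. It was the brightest of the 5, and its lowest double-mutant array was well above the highest other array, a pmr6 one. Higher member 26 read 269.4, 260.2 and 204.8 in pmr5 pmr6, against 153.7, 156.5 and 143.1 in Col-0 and 126.7 to 183.1 over the single-mutant arrays.

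The lower ones were members 2 and 6, given above, with 16, 17 and 25. Lower member 16 read 308.9, 415.7 and 283.4 in pmr5 pmr6, against 581.5, 432.1 and 590.1 in pmr5, 541.2, 467.5 and 538.2 in pmr6, and 483.7, 562.8 and 625 in Col-0. Its replicate 2 was the closest to the other genotypes, just under pmr5 replicate 2. Lower member 17 read 400, 501.1 and 379.5 in pmr5 pmr6, against 620.5, 742.3 and 780.3 in pmr5, 787.2, 714.8 and 658.1 in pmr6, and 593.6, 712.2 and 659.5 in Col-0. The single mutants there were near Col-0, with differences of 0.12 and 0.13 (SE 0.12 each) that did not pass the test. Lower member 25 read 621.4, 773.4 and 655.7 in pmr5 pmr6, against 929.1, 1015 and 1011.8 in pmr5, 1025.8, 998.1 and 1068.4 in pmr6, and 968.9, 1076.6 and 1013.3 in Col-0. It was the tightest of the group, with the 9 other arrays between 929.1 and 1076.6.

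**Figure D4:**
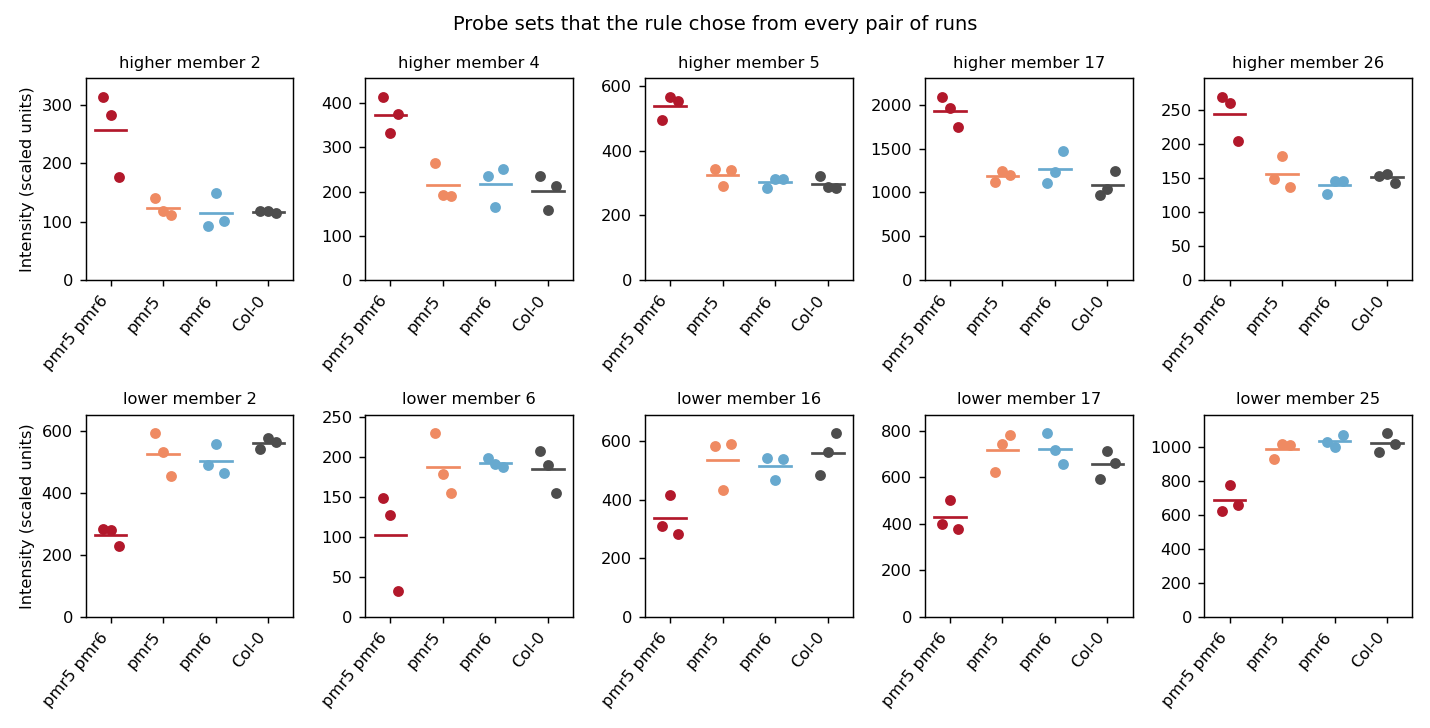
Intensity (vertical axis from 0, scaled units) of the 5 higher (top) and 5 lower (bottom) members that every pair of runs chose, by genotype. Points are single arrays and bars the mean of 3; in every panel all pmr5 pmr6 points lie outside the range of the 9 others.

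The interaction contrast (how far the double mutant departs from what adding both single-mutant differences would give) was also part of what the rule used. Its median was 0.53 at higher and -0.51 at lower members, against 0.00 over all probe sets. Limma called it for 1 higher and 2 lower members, where 0.041% and 0.0762% of all probe sets were called upward and downward, and 32 higher and 39 lower members had an unadjusted p under 0.05 in their direction (3.76% and 4.88% of all). The median standard error of this contrast was 0.22 over all probe sets, against 0.15 for the double mutant against Col-0. Apart from lower member 1, the called members were higher member 20 and lower member 13. Higher member 20 read 2695.5, 2383.1 and 2024.1 in pmr5 pmr6, against 1208.9, 1541.5 and 1446.9 in pmr5, 1468.7, 1129.7 and 1423.9 in pmr6, and 1365.1, 1898.6 and 1431.4 in Col-0. Lower member 13 read 562.9, 557.5 and 501.6 in pmr5 pmr6, against 839.4, 821.9 and 986.3 in pmr5, 1124.8, 894.3 and 898.6 in pmr6, and 803.5, 984.2 and 772.2 in Col-0. In both, the single mutants were on the other side of Col-0 from the double mutant on average, which enlarges the contrast.

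For comparison, each genotype in turn was taken as the one apart, with the other 3 held within the same limit (measured from pmr5 where Col-0 was the one apart). Beyond a margin of 0.5 on the log2 scale, pmr5 pmr6 stood alone at 36 probe sets upward and 33 downward. The counts were 0 and 2 for pmr5, 2 and 2 for pmr6, and 33 and 46 for Col-0. These were 0.804% of the 8586 probe sets examined for pmr5 pmr6, 0.0273% of 7313 for pmr5, 0.0564% of 7092 for pmr6 and 0.871% of 9075 for Col-0. At a margin of 0.25 the numbers were 326 and 413 for pmr5 pmr6, 100 and 88 for pmr5, 51 and 137 for pmr6, and 344 and 382 for Col-0. In these counts the double mutant was alone far more often than either single mutant and about as often as the wild type. No test was applied to the counts, and those of pmr5 pmr6 rest on the same margins that chose the members. Over the 12 fits without 1 array the total at 0.5 was 57 to 113 for pmr5 pmr6, 1 to 38 for pmr5, 1 to 19 for pmr6 and 66 to 114 for Col-0. For each genotype the highest total came when its own replicate 2 was left out. The pmr5 pmr6 total was 36 with a minimum mean intensity of 200 and 46 with a pseudocount of 64, where the Col-0 total was 53 and 50.

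**Figure D5:**
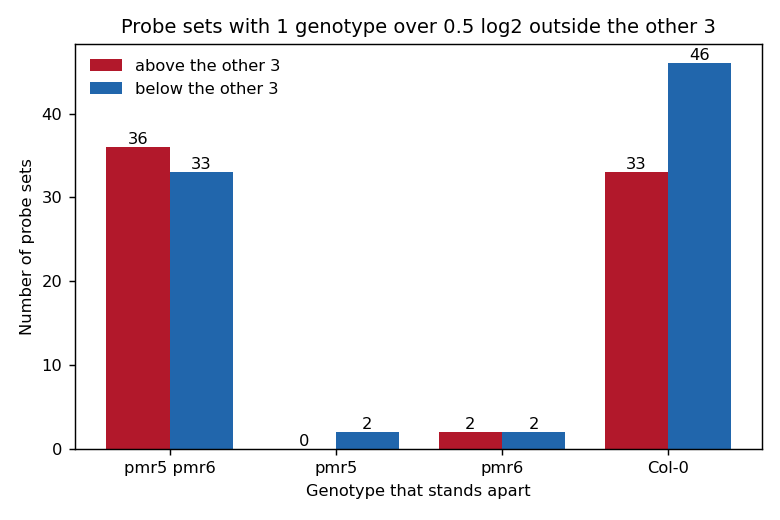
Number of probe sets (vertical axis) at which 1 genotype (horizontal axis) lay more than 0.5 log2 above (red) or below (blue) all 3 others, which stayed within 0.25 of Col-0, or of pmr5 for the Col-0 bars. The bars of pmr5 pmr6 (36 and 33) and Col-0 (33 and 46) exceed those of pmr5 and pmr6 (at most 2).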

How the data were processed

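The authors deposited 1 linear intensity per probe set and array, and the arrays had been scaled alike: once the top and bottom 2% of probe sets were dropped, every array averaged 500. The software that summarised probes is not stated in the labels or headers used here, and the table has no detection calls. Medians ran from 168 to 190. Runs were read from hybridization times at most 30 minutes apart in the instrument records. Intensities were used as log2(intensity + 28), which shrinks changes near background. Left out were 64 rows whose identifier starts with AFFX, the prefix of the array controls, and the dimmest 25% of the others. No order of identifiers was recovered, so these 64 rows need not hold the controls. Control rows may remain in the fit and among the members. A model with 4 genotype means was fitted to 17060 probe sets with limma 3.58.1 in R 4.3.3. It used eBayes with an intensity trend, 8 residual degrees of freedom and Benjamini-Hochberg adjustment. Members were chosen and figures drawn in Python 3.11.15 with matplotlib 3.10.9. The rule and the model fit were each run on simulated data. For the rule the simulated rows had larger shifts and less spread than most members, so that run does not show how well it chose here. The members and the plan were chosen with earlier results of these data known. Members named singly are the 10 with the highest and the 10 with the lowest margin, those at rank 75 and 76 and those called by the interaction; members chosen by every pair of runs, the brightest member and lower member 60 were added after their values were seen. Gene lists and marker genes were not used, since rows have no gene. Alternatives were another pseudocount, dim filter, normalization, variance model, limit or minimum, each array left out, and the replicate number as a block.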

Additional observations from a re-analysis of the deposited data

Results flagged for a closer look

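For 3 members the effect of pmr5 differed between the pmr6 and Col-0 backgrounds by the limma interaction contrast, on values that had also chosen them: 0.96 for higher member 20, -1.74 for lower member 1 and -0.86 for lower member 13 on the log2 scale. Leaving out 1 array at a time ended the call for higher member 20 in 8 of the 12 fits, for lower member 1 in 8 and for lower member 13 in 10, and no variance trend or no dim filter ended it for all 3. Over the 12 fits the contrast ran from 0.81 to 1.06, from -2.06 to -1.36 and from -0.96 to -0.75.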

How the results depend on the processing

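Of 324 alternative values, mostly counts and shares, 244 stayed within a set limit and 80 moved beyond it. The limit for counts was a ratio, and it was wide. Calls against Col-0 at 36 higher members instead of 52, or at 38 lower members instead of 53, were still within it. The interaction called 0 higher and 0 lower members with no dim filter or without the variance trend, 0 and 1 with the robust trend, 1 lower member with the dimmest 50% left out, and 0 and 1 without both arrays with a raised dim end, a setting chosen after seeing the data. Without the variance trend 7 higher and 10 lower members were called against pmr5 and 26 lower ones against pmr6. The unmoderated 2-sample test, at an adjusted p under 0.05, called 13 higher and 9 lower members against Col-0. It called 0 and 0 against pmr5, and 1 and 0 against pmr6. At that threshold limma called 52 and 53, 23 and 28, and 36 and 41, with the shares of all probe sets given above. At an unadjusted p under 0.05 limma had 66 higher and 67 lower members against pmr5 (6.81% and 7.95% of all in that direction). Against pmr6 it had 68 lower members (9.88%). Causes were not tested. With 1 array left out the calls among higher members were 36 to 55 against Col-0, 10 to 24 against pmr5, 20 to 37 against pmr6 and 0 to 2 for the interaction. Among lower members they were 38 to 54, 19 to 31, 27 to 40 and 0 to 4. The same fits gave medians against Col-0 of 0.61 to 0.65 and -0.67 to -0.58, and the rule applied again kept 47 to 61 higher and 44 to 64 lower members. It kept 41 and 36 without both arrays with a raised dim end, 37 and 49 with a minimum mean intensity of 200, 34 and 40 with genotype medians, and 47 higher members with a limit of 0.2. The share on the higher side was 80% in left-out run 1 with 25 probe sets per direction, and 65.5% and 58% in runs 2 and 3 with 200. The replicate block called 53 higher and 55 lower members against Col-0, 34 higher members against pmr6, and 3 lower members for the interaction, and it ended the call of higher member 8 against pmr6; replicate numbers follow the runs, but deviations of same-number arrays correlated between -0.07 and 0.08, so they were not taken as pairs. The table gives no background level, so how far dim members stand above it is unknown, and 3 arrays per genotype limit the precision.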
